A study of Mus musculus with 4 samples.

Results

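Receptors and ligands of advanced glycation end products (AGEs) were examined in mouse prefrontal cortex across 4 diet and genotype groups. The set held 10 genes, Ager, Msr1, Cd36, Lgals3, Ddost, Prkcsh, Hmgb1, S100a8, S100a9 and Scarb1, and was found by an exact match of the gene name among the non-control probes. These genes had 22 of the array's 56605 probes and were 10 of its 27248 gene names. Of the 10 genes, 9 had a probe well above background on all 4 arrays, and 19 of the 22 probes met that condition. Msr1 did not.

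All mice were of strain B6J and 3 months old, and were fed starch or sucrose for some 70 days after being weaned at postnatal day 21. They were wild-type or heterozygous for Glo1, whose product glyoxalase 1 removes methylglyoxal, a reactive sugar by-product that forms AGEs on proteins. The groups were wild-type on starch (the study's control), wild-type on sucrose, Glo1 heterozygous on starch and Glo1 heterozygous on sucrose. RNA from 3 mice per group was mixed, 200 ng of total RNA was labelled with Cy3, and each mixture was hybridised to 1 one-colour Agilent array. Each group therefore had 1 array, the spread between mice was not measured, and no difference between single arrays has a test. All 4 arrays shared 1 slide, and each group had its own position, so position and group cannot be told apart.

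AGEs form when sugars and dicarbonyls react with proteins without an enzyme. The receptor RAGE, encoded by Ager, binds AGEs together with the S100A8/S100A9 dimer and HMGB1, and signals to NF-kB. Scavenger receptors of macrophages and endothelium (MSR1, CD36, SR-BI) take up modified proteins and lipoproteins. A further AGE-binding complex was described as OST-48 (Ddost), the 80K-H protein (Prkcsh) and galectin-3 (Lgals3), of which the first 2 work in glycoprotein synthesis and the last is a sugar-binding lectin of activated macrophages and microglia.

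The probe sequences show what each signal measured. The Lgals3 probe below spans a splice junction and was the only member probe printed 10 times per array. The S100a8 probe was the only one for that gene. The first Ager probe was the brightest of 7. The other Ager pair is set side by side because the probes cross a junction at nearly the same place, and capitals mark the 46 bases they share. Each is given 5′ to 3′ as the array file lists it.
Lgals3 A_51_P101929: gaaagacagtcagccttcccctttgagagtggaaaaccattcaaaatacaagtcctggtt
S100a8 A_51_P256827: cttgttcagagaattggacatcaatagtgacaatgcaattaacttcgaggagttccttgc
Ager A_55_P2718127: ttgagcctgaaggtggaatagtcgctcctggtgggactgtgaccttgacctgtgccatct
Ager A_55_P2718122: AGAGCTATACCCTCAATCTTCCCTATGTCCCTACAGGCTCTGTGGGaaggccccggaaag
Ager A_55_P2745215: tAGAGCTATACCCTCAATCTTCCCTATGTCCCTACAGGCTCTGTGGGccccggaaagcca

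On mouse build mm9, as the array file gives positions, the Lgals3 probe lies at chr14:48004398-48005214 on the plus strand and skips 757 bases of that span. The S100a8 probe lies at chr3:90473778-90473837 (plus strand), and the S100a9 probe at chr3:90496573-90496632 (minus strand), 22735 bases away. The brightest Ager probe lies at chr17:34736324-34736383 (plus strand). The Ager junction pair lies at chr17:34737404-34737666, skipping 203 bases, and at chr17:34737403-34737669, skipping 207 bases, so the transcripts they target differ in the bases removed there.

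S100a8 and S100a9 are neighbours with the same signs of diet and genotype difference (below), and their promoters are therefore shown. The windows run from 250 bases before to 50 bases after the start site in RefSeq, build GRCm38.p6. Capitals mark motif matches found on either strand.
S100a8, chr3:90668821-90669120, plus strand: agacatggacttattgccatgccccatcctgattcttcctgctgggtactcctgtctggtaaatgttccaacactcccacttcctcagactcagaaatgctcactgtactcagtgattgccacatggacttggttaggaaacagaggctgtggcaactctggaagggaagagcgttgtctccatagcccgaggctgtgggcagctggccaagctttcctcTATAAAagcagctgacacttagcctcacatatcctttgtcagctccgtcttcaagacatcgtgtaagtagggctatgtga
S100a9, chr3:90695672-90695971, minus strand: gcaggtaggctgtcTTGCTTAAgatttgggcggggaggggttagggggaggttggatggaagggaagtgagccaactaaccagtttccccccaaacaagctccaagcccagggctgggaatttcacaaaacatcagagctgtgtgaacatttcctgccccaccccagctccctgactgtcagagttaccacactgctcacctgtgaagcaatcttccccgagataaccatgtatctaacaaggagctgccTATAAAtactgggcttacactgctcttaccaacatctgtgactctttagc

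The motifs searched were a TATA box (TATAAA), AP-1 (TGANTCA), C/EBP (TTGCNNAA) and the NF-kB motif. Of 32851 mouse promoter windows of this length, 13.6% held the first, 7.81% the second, 10.8% the third and 8.46% the NF-kB motif. S100a8 had a TATA box at -30 from the RefSeq start site. S100a9 had TATAAA at position 1 and a C/EBP match at -236. Of the 8 members with a window in the table, the only other match was an NF-kB motif at -70 of Lgals3 (GGGAAGCTCC). A match is a description of these letters, not a bound site.

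Levels are given as processed intensity divided by the array's own 75th percentile, which lay between 1780 and 1929 fluorescence units. Between 77.6% and 80.2% of non-control spots were well above background, and none was saturated. Glo1 itself was measured at 4.04 on the wild-type starch array, 5.53 on wild-type sucrose, 2.74 on heterozygous starch and 3.04 on heterozygous sucrose, so both heterozygous arrays were lower, as labelled (log2 difference -0.56 on starch and -0.86 on sucrose). All 13 cortical excitatory neuron markers were above background, with sums from 89.4 to 116. Choroid plexus markers were summed at 1.40, 2.65 and 1.45 on the first 3 arrays and at 73.4 on the heterozygous sucrose array. In the wild-type diet comparison the 11 striatal markers had a median log2 difference of 0.88, and in the heterozygous one -0.92. Sums ran from 110 to 122 for astrocytes, from 132 to 145 for oligodendrocytes and, on the heterozygous arrays, to 1.504 and 0.905 for melanocytes, against 0.362 and 0.295 on the wild-type ones. Each sum adds levels of different probes and so follows the brightest of them. The part of these lists in the results below was not tested. In bulk tissue, fewer cells of a type and less RNA per cell cannot be told apart.

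Lgals3 varied most of the 9 measured genes. Its brightest probe read 0.143 on the wild-type starch array, 0.0669 on wild-type sucrose, 0.149 on heterozygous starch and 0.269 on heterozygous sucrose. The starch arrays of both genotypes were nearly level, the wild-type sucrose array was the lowest and the heterozygous sucrose array the highest. The log2 difference of sucrose from starch was -1.09 in the wild-type and 0.85 in the heterozygous pair of arrays. Heterozygous exceeded wild-type by 2.01 on sucrose, against 0.07 on starch. Spots of repeatedly printed probes of similar brightness gave a noise SD of 0.222 for the wild-type diet difference and 0.194 for the heterozygous one, so both were more than 4 times the noise between spots. That noise holds neither the hybridisation nor the mice.

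The second Lgals3 probe, the one whose sequence is given above, ordered the arrays with the same ends. Its spots averaged 0.0868 ± 0.0053 (SD, n = 9 spots) on wild-type starch, 0.0536 ± 0.0037 (n = 10) on wild-type sucrose, 0.0779 ± 0.0031 (n = 8) on heterozygous starch and 0.126 ± 0.0061 (n = 10) on heterozygous sucrose. The spots of the heterozygous sucrose array (0.118 to 0.138) lay above all others, and those of the wild-type sucrose array (0.0481 to 0.0605) below all others, while the 2 starch arrays overlapped. Spots are repeats of 1 hybridisation, not of mice. Its log2 differences were smaller, -0.70 (wild-type) and 0.69 (heterozygous), with 1.23 between genotypes on sucrose. The 2-fold drop on sucrose in wild-type mice was thus read by 1 of the 2 probes. It was also lost with normexp background correction, where the brightest probe gave -0.79.

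**Figure D1:**
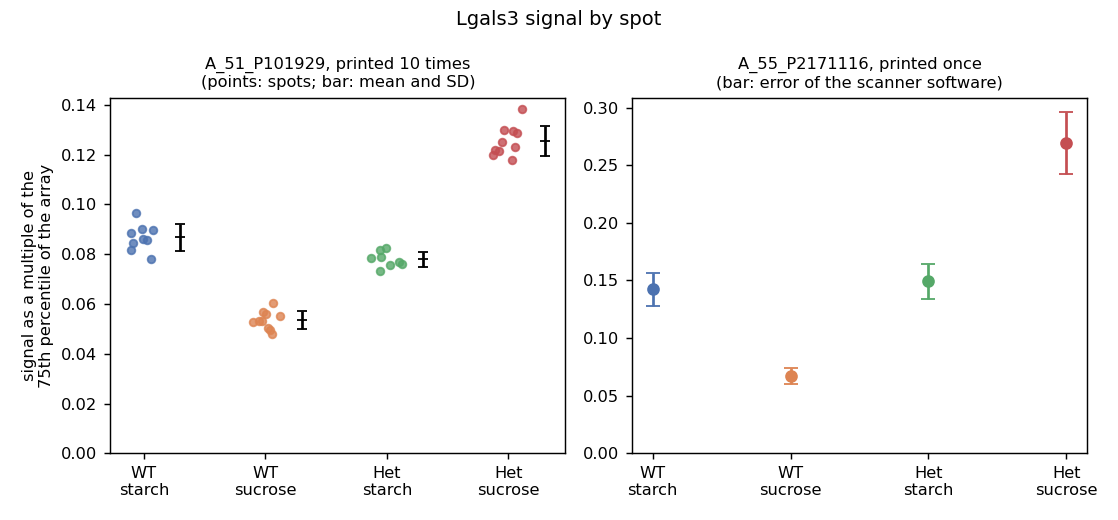
Lgals3 signal (y axis, multiple of the array's 75th percentile) on the 4 arrays for the probe printed 10 times (left, points are spots, bars mean and SD) and the brightest probe (right, bar is the error that the scanner software gives). In both panels the wild-type sucrose array is lowest (0.0536 and 0.0669) and the heterozygous sucrose array highest (0.126 and 0.269).

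Among 20655 genes, 160 had a range over the 4 arrays as wide as the 2.01 of Lgals3, which placed it at the 99.2nd percentile. S100a9 (range 1.36) was at the 97.9th and S100a8 (1.20) at the 97.3rd. Prkcsh (0.07) and Hmgb1 (0.09) were among the steadiest genes, at the 3.12th and 6.11th percentile.

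Cell type markers were read beside Lgals3. Microglial markers summed to 115 on wild-type starch, 103 on wild-type sucrose, 98.9 on heterozygous starch and 101 on heterozygous sucrose, and none of the 16 passed 2-fold in any comparison. Border macrophage markers summed to between 2.94 and 3.64, with all 12 above background on every array. Neither sum had its highest value on the heterozygous sucrose array, where Lgals3 was highest. The choroid plexus sum did (73.4), as did the ependymal sum (4.76, against 1.77 to 2.15 on the other arrays) and that of meningeal fibroblasts (15.9, against 12.8 to 13.9), although the 12 fibroblast markers split 6 higher and 6 lower with diet in heterozygous mice (median 0.03), and 10 higher and 2 lower with genotype on sucrose (median 0.07). Folr2, a border macrophage gene, had diet differences of -0.70 (wild-type) and 0.27 (heterozygous), and was the only one of the 12 markers above 0 with diet in heterozygous mice, where the other 11 were lower (median -0.26). The part of these cells in the Lgals3 values was not tested.

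The other subunits described for the same AGE-binding complex had narrower ranges than Lgals3. Ddost, a subunit of the oligosaccharyltransferase that attaches N-glycans, read 4.27 on wild-type starch, 3.66 on wild-type sucrose, 3.56 on heterozygous starch and 3.40 on heterozygous sucrose. The wild-type starch array was the highest, and the widest log2 difference was -0.33, between heterozygous sucrose and wild-type starch. This was 3.6 times the noise between spots and a range at the 61.9th percentile of all genes. Prkcsh, the beta subunit of glucosidase II, read 17.6, 18, 18.5 and 17.9 in the same order, and no log2 difference between a pair of arrays exceeded 0.07. The log2 range over the arrays was thus 2.01 for Lgals3, 0.33 for Ddost and 0.07 for Prkcsh.

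S100a8 and S100a9, whose products form the calprotectin dimer of neutrophils and monocytes, shared their highest and lowest arrays, heterozygous starch and wild-type sucrose. S100a8 read 0.135 on wild-type starch, 0.0782 on wild-type sucrose, 0.180 on heterozygous starch and 0.130 on heterozygous sucrose. S100a9 read 0.330, 0.227, 0.580 and 0.417 in that order. Both genes were lower on sucrose in each genotype and higher in heterozygous mice on each diet. For S100a8 the middle pair, wild-type starch and heterozygous sucrose, differed by only -0.05 in log2, less than the noise between spots (0.207). For S100a9 heterozygous sucrose was above wild-type starch by 0.34, so the middle pair stood in the other order.

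The diet difference of S100a8 was -0.79 among wild-type and -0.47 among heterozygous mice, and the genotype difference 0.42 on starch and 0.74 on sucrose. S100a9 differed by -0.54 and -0.48 with diet, and by 0.81 and 0.88 with genotype. Each of these 8 values was at least 2 times the noise between spots. None passed 2-fold. The diet difference changed little with genotype for S100a9, where the interaction (the heterozygous diet difference minus the wild-type one) was 0.06, and was 0.32 for S100a8.

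Neutrophil and monocyte markers were measured for 14 of 18 genes. They summed to 72.7 on wild-type starch, 55.7 on wild-type sucrose, 64.7 on heterozygous starch and 55 on heterozygous sucrose, and so were lower on the sucrose arrays. With diet, 10 of the 14 were lower in each genotype, while 49.9% and 50.1% of all genes were higher. Past 2-fold were 2 of them in wild-type mice (Lcn2 and the monocyte receptor Ccr2, -2.75), against 1.48% of all genes. In heterozygous mice it was 0, against 1.77%. Ccr2 read 0.0845 on wild-type starch and 0.0124 to 0.0142 on the other arrays, and was the only marker of the list past 2-fold with genotype on starch (-2.77). With genotype, 6 of the 14 were higher and 8 lower on starch (median -0.14, with 46% of all genes higher), and 10 higher and 4 lower on sucrose (median 0.11, with 45.1% of all genes higher). The granule genes differed among themselves. With genotype on starch, 3 of the 14 markers were higher and 1 lower by over 1.5-fold (3.97% of all genes in either direction). Retnlg and Ltf, both dim, were 2 of the 3, higher by 0.91 and 0.80. On sucrose the 14 ran from -0.27 to 0.39 with genotype, and 0 passed 1.5-fold (4.58% of all genes). Lcn2, a siderophore-binding protein, was lower with genotype on starch by log2 -0.49, and its diet differences were -1.24 and -0.74. Ly6g, the neutrophil surface marker, differed by -0.83 and -0.44 with diet and by -0.34 with genotype on starch. Camp differed by 0.00 and 0.23 with genotype on starch and sucrose. Cxcr2 was above background on no array and Ngp on 2.

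Red cell markers also differed with diet: the 6 measured summed to 158, 76.6, 134 and 86.5 in the same order, and all 6 were lower on sucrose in both genotypes (median log2 difference -1.24 for wild-type, -0.70 for heterozygous). With genotype their median was -0.31 on starch, where all 6 were lower, and 0.26 on sucrose, where 5 of 6 were higher, while S100a8 and S100a9 were higher in heterozygous mice on both diets. The part of blood cells in the S100a8 and S100a9 values was not tested.

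**Figure D2:**
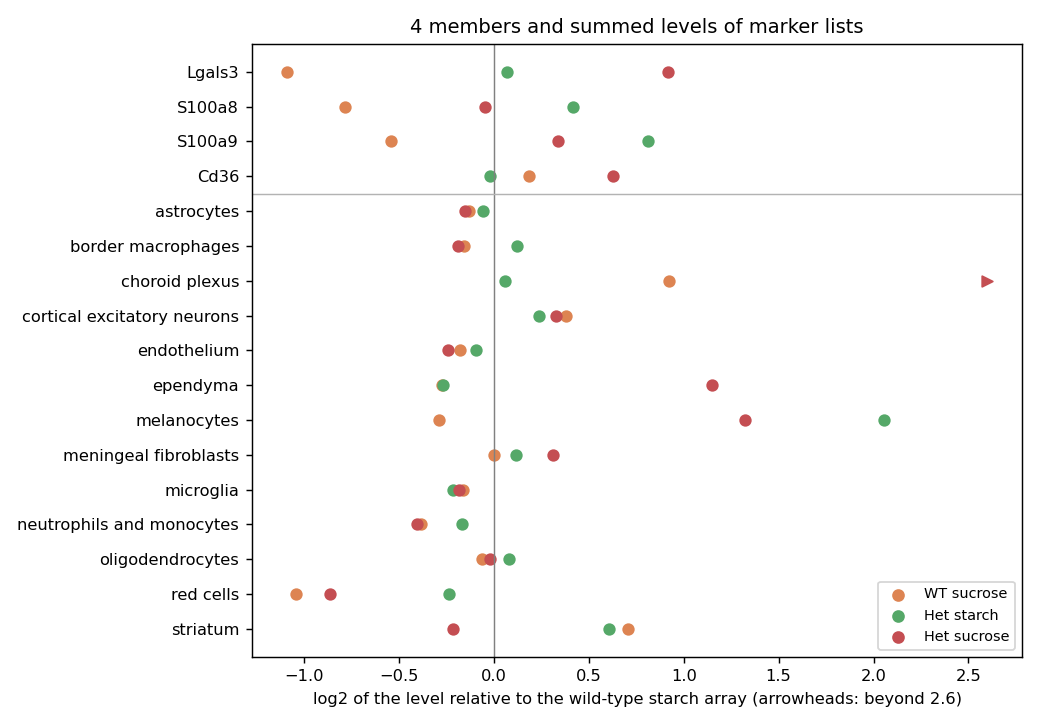
Log2 level relative to the wild-type starch array (x axis) of 4 members (top) and of the summed levels of 13 marker lists (bottom), with 1 point per remaining array. S100a8 and S100a9 are lower on the wild-type sucrose array (-0.79 and -0.54) and higher on the heterozygous starch array (0.42 and 0.81), while the red cell sum is lower on all 3 arrays and the choroid plexus sum of the heterozygous sucrose array lies off the axis.

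Hmgb1, a chromatin protein that acts as a danger signal and RAGE ligand once outside the cell, was flat. Its brightest probe read 12.6 on wild-type starch, 12.8 on wild-type sucrose, 13.4 on heterozygous starch and 13.5 on heterozygous sucrose. No log2 difference between arrays exceeded 0.09 in any of its 4 probes. Probes of Hmgb1 share runs of 20 to 28 bases with probes of other transcript models on the array, so its reading is uncertain to that extent.

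Ager, the receptor itself, was read by 7 probes, and those above background on all arrays split in the sign of their diet difference. Its brightest probe read 0.769 on wild-type starch, 0.576 on wild-type sucrose, 0.627 on heterozygous starch and 0.554 on heterozygous sucrose. The wild-type starch array was the highest, and the log2 diet difference was -0.42 for wild-type and -0.18 for heterozygous mice. The widest difference, heterozygous sucrose against wild-type starch, was -0.47, at 4.1 times the noise between spots. Over the 6 probes above background on all arrays, the wild-type diet difference ran from -0.42 to 0.21, with 3 higher and 3 lower and a mean over probes of -0.08. The heterozygous one ran from -0.18 to 0.28, with 4 higher and 2 lower and a mean of 0.08, the opposite sign of the brightest probe. In wild-type mice the brightest probe was at 3.6 times the noise between spots, the others at most at 0.91 times. In heterozygous mice it was at 1.7 times and the others at most at 1.2 times, so the split cannot be told from noise. With genotype on sucrose 5 were higher and 1 lower. The interaction was above 0 in all 6, at most 1.5 times the noise.

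The junction pair of Ager shared 46 bases yet ordered the genotypes differently on starch. The probe that skips 203 bases read 0.0240 on wild-type starch, 0.0220 on wild-type sucrose, 0.0285 on heterozygous starch and 0.0263 on heterozygous sucrose. The one that skips 207 bases read 0.0389, 0.0342, 0.0320 and 0.0366. Their genotype differences on starch were 0.25 and -0.28. The noise between spots at these signals was 0.35 and 0.32, larger than either difference. A pair of Ager probes near the 3′ end, sharing 55 bases, had diet differences of 0.01 and 0.21 in wild-type mice and of 0.22 and 0.28 in heterozygous mice. The junction pair had -0.12 and -0.19, and -0.12 and 0.19. The 7th probe exceeded background on 1 array only, wild-type sucrose, where it was at least 1.47-fold brighter than on wild-type starch.

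Of the 3 scavenger receptors, Cd36 and Msr1 were dim. Scarb1, the high-density lipoprotein receptor SR-BI, read 1.01 on wild-type starch, 1.25 on wild-type sucrose, 1.19 on heterozygous starch and 1.29 on heterozygous sucrose. Wild-type starch was the lowest array, and the log2 diet difference was 0.30 for wild-type and 0.12 for heterozygous mice. Its second probe had differences of 0.13 and 0.40, and went the other way with genotype on starch (-0.30, against 0.24 for the brightest).

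Cd36, the fatty acid translocase of endothelium and phagocytes, was close to the limit of measurement. Its intensity was 21.7 ± 3.5 (error by the software) on wild-type starch, 26.4 ± 3.6 on wild-type sucrose, 22.6 ± 3.7 on heterozygous starch and 36.4 ± 4.7 on heterozygous sucrose. The lowest intensity counted as well above background was between 10.5 and 13. The heterozygous sucrose array was the highest, and the diet difference there was 0.65, which is 1.4 times the noise between spots (0.455). With normexp correction it was 0.11, so the Cd36 order is not resolved at this signal. Endothelial markers, 14 of 14 measured, summed to 46.4, 41, 43.4 and 39.2 in the array order above, with 8 of 14 higher and 6 lower for diet in wild-type mice (median 0.03), and 6 higher and 8 lower in heterozygous mice (median -0.07).

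Msr1, the class A macrophage scavenger receptor, had a detectable signal on 1 array. Its first probe read 6.5 on wild-type starch, 42.6 on wild-type sucrose, 9.8 on heterozygous starch and 3.7 on heterozygous sucrose in intensity, and only the wild-type sucrose value was well above background. Against the detection limit this was at least 3.42-fold above wild-type starch and at least 3.33-fold above heterozygous sucrose. The second Msr1 probe was not well above background on any array, with 6.0 on wild-type sucrose and 2.6 to 2.9 elsewhere. The single bright spot therefore had no second measurement.

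**Figure D3:**
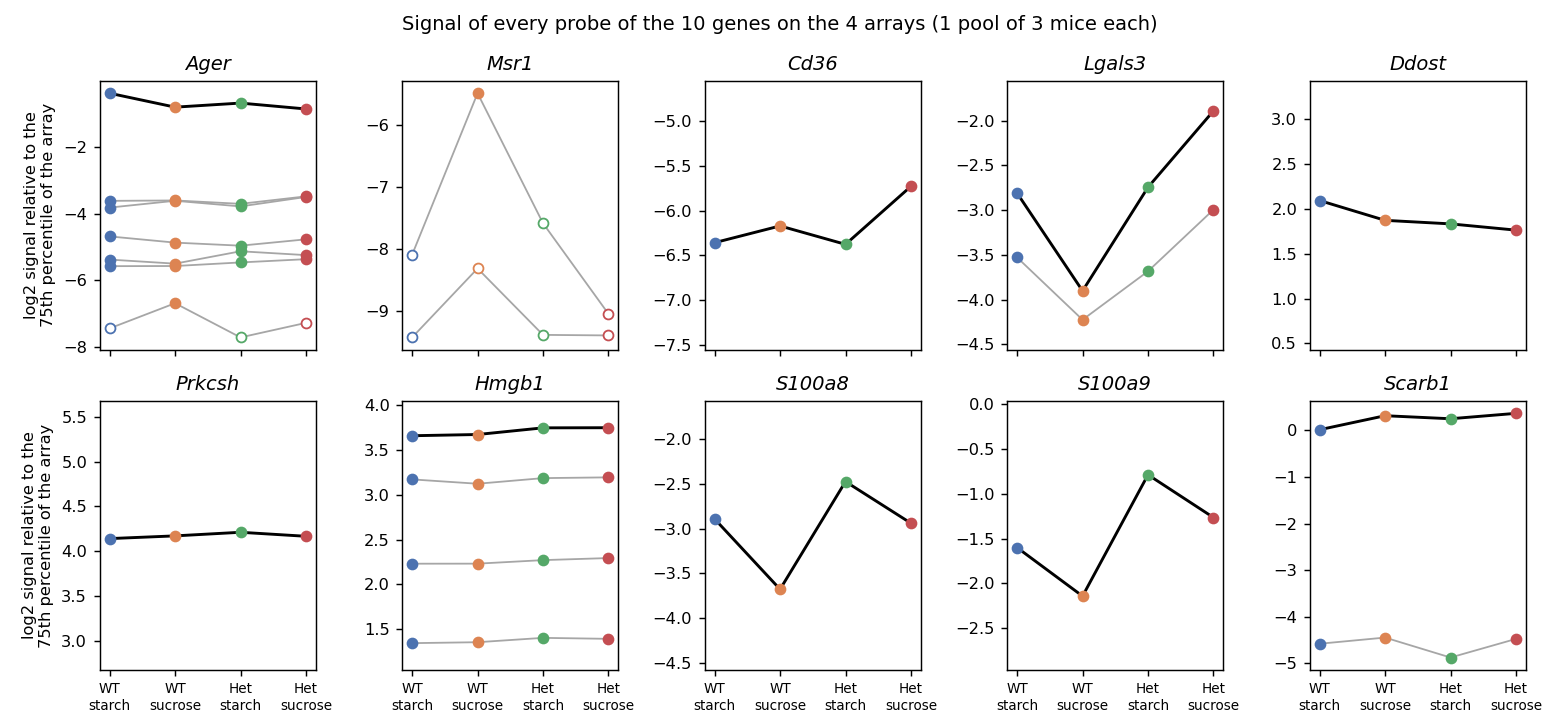
Log2 signal relative to the array's 75th percentile (y axis) of every probe of the 10 genes on the 4 arrays (x axis), 1 panel per gene, each with its own axis of at least 3 log2 units. Black lines join the brightest probe that was above background on all arrays, and open circles are values not well above background. Lgals3, S100a8 and S100a9 vary visibly over the arrays, while Prkcsh and Hmgb1 lie flat.

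As counts, few members passed 2-fold. In wild-type mice, 1 of 9 differed by 2-fold or more with diet (Lgals3, lower), against 1.48% of all 20655 genes. In heterozygous mice it was 0 of 9, against 1.77%. Between genotypes it was 0 of 9 on starch (0.813% of all genes) and 1 of 9 on sucrose (Lgals3, higher, against 1.71%). Heterozygous sucrose against wild-type starch, the combination against the control, gave 0 of 9 (2%), and the interaction 1 of 9 (Lgals3, against 2.88%). With 9 genes, 1 call is too few to set the group apart from the background. The comparisons share arrays, so they are not independent of each other.

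At 1.5-fold, 2 members differed with diet in wild-type mice (Lgals3 and S100a8, both lower, against 5.93% of all genes). In heterozygous mice 2 did (Lgals3 and Cd36, both higher, 5.57%). With genotype on starch it was S100a9 alone, higher (3.97%), and on sucrose Lgals3, S100a8 and S100a9, all higher (4.58%). Lgals3 and Cd36 were also higher in heterozygous sucrose than in wild-type starch mice (7.32%), and Lgals3 alone passed for the interaction (8.45%). The median of the 9 log2 differences was -0.22 and -0.04 for diet in wild-type and heterozygous mice, and 0.07 and 0.08 for genotype on starch and sucrose. All genes had medians between -0.02 and 0.00.

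**Figure D4:**
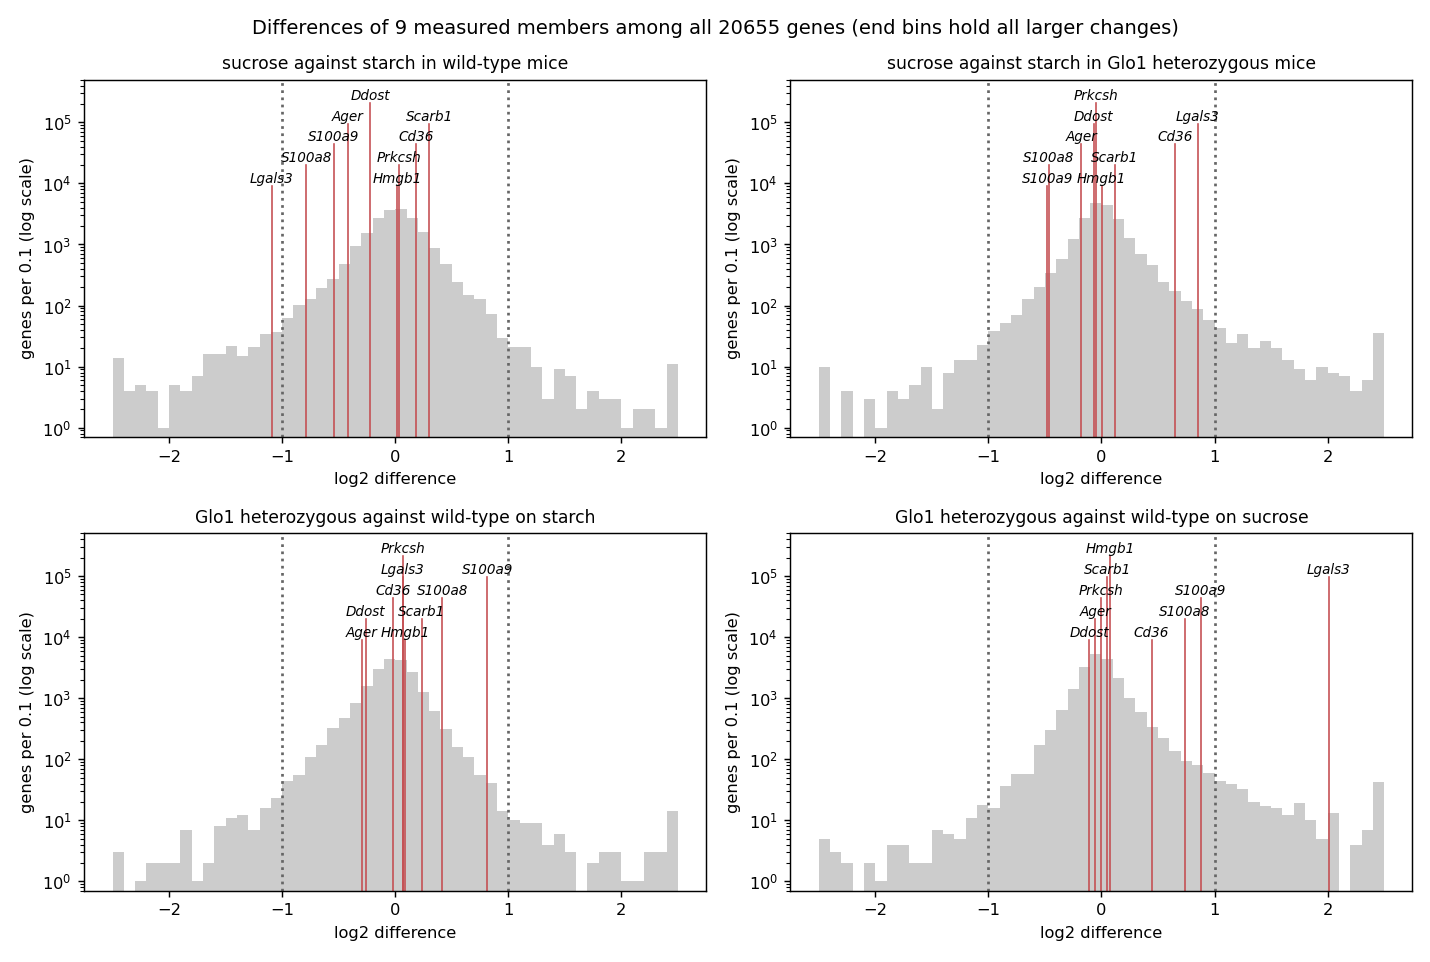
Histograms of the log2 difference (x axis) of 20655 genes in 4 comparisons, with a log count axis and dotted lines at 2-fold. Red lines mark the 9 measured members, and their height carries no value. Most members lie in the bulk of genes, with Lgals3 at -1.09, 0.85, 0.07 and 2.01.

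A model with diet and genotype as additive terms uses the 1 residual degree of freedom of the 4 arrays. That residual is the diet by genotype interaction, taken as error, so the p-values do not measure a spread between mice or pools. With limma and Benjamini-Hochberg adjustment, 0 of the 19 member probes and 0 of 42094 probes were called for either term. Unadjusted p was below 0.05 for 3704 probes (8.80%) with diet and 2704 (6.42%) with genotype. S100a9 had an additive log2 effect of -0.51 for diet (limma adjusted p = 0.532) and 0.85 for genotype (adjusted p = 0.733). S100a8 had -0.63 (limma adjusted p = 0.532) and 0.58 (adjusted p = 0.733). The largest genotype effect among the members was that of Lgals3, 1.04 (limma adjusted p = 0.733), where the diet differences run in opposite directions and an additive term does not describe the arrays. In data simulated on the fit's own variances for the diet term, 0% of planted 2-fold and 0% of planted 4-fold changes were recovered, so an absent call for diet says little here. The genotype term was not simulated. A trended prior gave 1 call for diet and normexp correction 28, none of them a member.

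A further 116 genes of the pathway in 7 lists were examined, of which 112 were measured. Past 2-fold were 1 of 112 with diet in wild-type mice (against 1.48% of all genes), 1 in heterozygous mice (1.77%), 1 with genotype on starch (0.813%), 2 on sucrose (1.71%), 1 in heterozygous sucrose against wild-type starch (2%) and 2 for the interaction (2.88%). These counts are near the background. Ttr, the thyroxine carrier made by choroid plexus, was the one called in every comparison (0.259, 1.42, 0.101 and 58.7 in the array order used above). The others were Scara5 with genotype on sucrose (1.56) and Mmp9 for the interaction (-1.04).

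Other AGE-binding and scavenger receptors were mostly lower on sucrose in wild-type mice. Of 21 measured, 16 were lower and 5 higher, with a median log2 difference of -0.25 against 0.00 for all genes, of which 49.9% were higher. For the same comparison 11 of 16 microglial markers (median -0.19) and 10 of 12 border macrophage markers (median -0.16) were lower, and their part in these values was not tested. The 5 higher genes reached at most 0.21. Among the 16 lower ones, Marco, a macrophage scavenger receptor, differed by -0.60. The Fc receptors Fcgr3 and Fcgr1 differed by -0.54 and -0.46, and Cd163, the haemoglobin receptor of macrophages, by -0.44. In heterozygous mice 12 of the 21 were lower and 9 higher, with a median of -0.06 and a range from -0.33 to 0.46. None of the 21 passed 2-fold with diet. Scara5, a ferritin receptor, resembled Lgals3 in direction, at -0.62 and 0.29, and Lgals3bp, a galectin-binding glycoprotein, was at -0.42 and 0.05. Scara5 was dim, with levels from 0.00784 to 0.0231.

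Among the other RAGE ligands, 11 of 14 were lower on sucrose in each genotype, with medians of -0.12 and -0.08, while 49.9% and 50.1% of all genes were higher. S100a10, the annexin A2 partner, differed by -0.45 (wild-type) and -0.31 (heterozygous). S100b, the astrocytic S100 protein, differed by -0.13 and -0.19. Outside Ttr, no measured ligand of this list passed 1.5-fold in any comparison. Hmgb2, a paralog of Hmgb1, was at -0.40 and -0.17.

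The 24 signalling and shedding genes had medians of 0.04 (wild-type) and -0.02 (heterozygous) for diet. Diaph1, which binds the cytoplasmic tail of RAGE, was at 0.13 and 0.07, and Adam10, which sheds RAGE, at 0.05 and -0.03. Mmp2, a matrix metalloproteinase, had the widest range of the list (0.80), lowest on wild-type starch and highest on heterozygous sucrose. Nfkbia, the NF-kB inhibitor and itself a target gene, was at 0.31 and -0.13. Of 13 measured NF-kB target genes, 9 were lower on sucrose in wild-type mice (median -0.19) and 11 in heterozygous mice (median -0.11), beside the same shares of all genes. With genotype 4 of the 13 were higher on starch (median -0.02) and 9 on sucrose (median 0.07), against 46% and 45.1% of all genes. The chemokine Ccl2 differed by -0.78 and -0.45, and Ptgs2, which encodes cyclooxygenase-2, by -0.71 and -0.06. Vcam1, an adhesion molecule, was at 0.05 and 0.15. Sele was not above background on all arrays.

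The partners of Ddost and Prkcsh in the endoplasmic reticulum differed little. Of 17 genes, 12 were lower with diet in each genotype, with medians of -0.02 and -0.09, and none passed 1.5-fold in any comparison, where between 3.97% and 8.45% of all genes did. In heterozygous sucrose against wild-type starch 14 were lower (median -0.15, with 47.3% of all genes higher). The chaperones Pdia3 and Calr had the largest differences in wild-type mice, -0.54 and -0.46. The catalytic subunits Stt3a and Stt3b were at -0.25 and -0.00. Ganab, the alpha subunit partner of Prkcsh, was at 0.02.

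Of 18 lipid partners of CD36 and SR-BI, 1 passed 1.5-fold with diet in wild-type mice, the fatty acid binding protein Fabp7 (-0.83). In heterozygous mice it was Lpl, the lipoprotein lipase, at 0.96. This is 1 of 18 in each genotype, against 5.93% and 5.57% of all genes. With genotype, 0 of 18 passed 1.5-fold on starch (3.97%) and 2 on sucrose, both higher (4.58%). In heterozygous sucrose against wild-type starch 1 did (7.32%), and for the interaction 2, both higher (8.45%). None of the 5 genes of the protein deglycation list passed 1.5-fold in any comparison. With diet 4 of the 5 were higher in wild-type mice and 3 in heterozygous mice (medians 0.06 and 0.01). With genotype 2 were higher on starch (median -0.03) and 0 on sucrose (median -0.13), beside the shares of all genes given above.

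**Figure D5:**
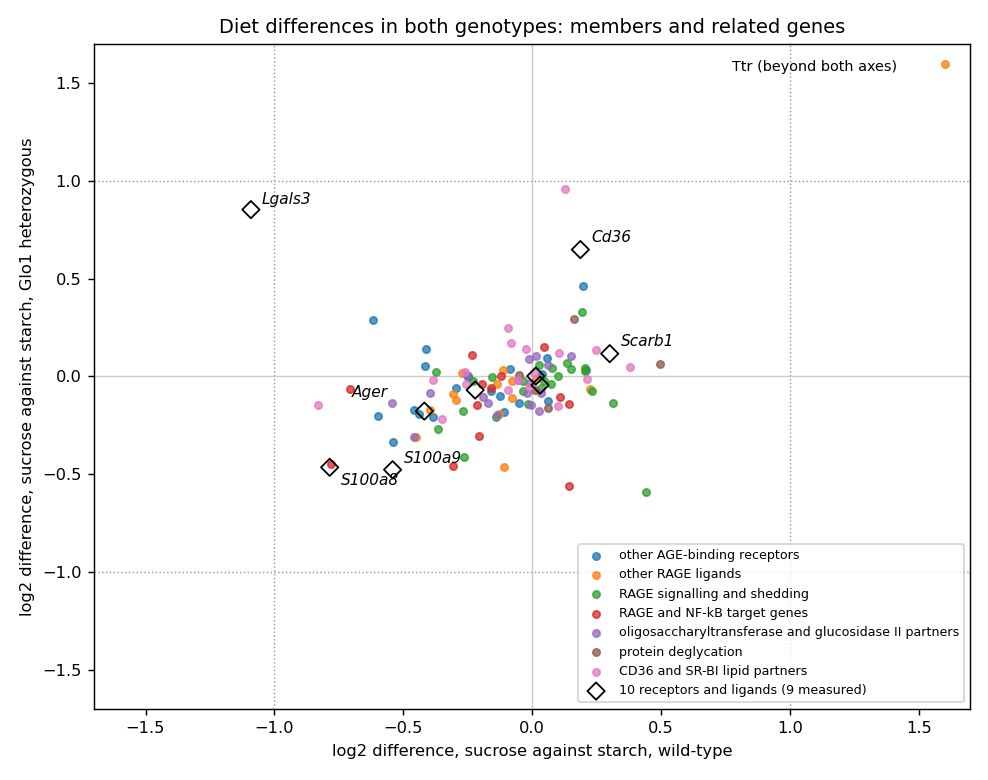
Log2 diet difference in wild-type mice (x axis) and in Glo1 heterozygous mice (y axis) of the 9 measured members (diamonds) and the 112 related genes (dots, coloured by list), with dotted lines at 2-fold. Lgals3 lies at upper left (-1.09 and 0.85), with Scara5 nearer the centre (-0.62 and 0.29), S100a8 and S100a9 at lower left, and Ttr beyond both axes.

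Genes with the most similar profile were named by the root mean square distance between centred log2 values over the 4 arrays, among 20654 other genes. For Lgals3 the nearest were 4631405J19Rik (distance 0.20), Vpreb1, Gdf15, Rasd1 and A2m. Gdf15, a stress-induced cytokine, had diet differences of -0.69 (wild-type) and 0.59 (heterozygous). For S100a8 they were Dusp5 (0.04), Misp, A930015D03Rik, A830012C17Rik and C130073E24Rik, and for S100a9 Pi16 (0.11), B430209F14Rik, A630077J23Rik, A930015D03Rik and 5430420F09Rik. S100a8 ranked 6th for S100a9, and S100a9 ranked 44th for S100a8. With 4 arrays such a likeness is a description.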

How the data were processed

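Prefrontal cortex RNA was measured on 4 one-colour arrays, 1 per group. The deposited intensity values were processed signals of Agilent Feature Extraction 11.5.1.1, per the submitters' processing notes. Per the file headers, background was subtracted with spatial detrending and multiplicative detrending was applied. The authors' deposited value table held the ratio of each processed signal to the 75th percentile in the array's file, equal within 0.001% for all 62976 spots of every array, and was not used further. Probe positions are on mm9, per the file headers.

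From these values, each signal was divided by its array's 75th percentile and put on the log2 scale in Python 3.11.15 with pandas 2.3.3. Control spots and spots marked as outliers were left out, and spots of a probe were averaged. Probes well above background on all 4 arrays were compared (42094 probes, 20655 genes), and a gene was represented by its brightest such probe. A difference was counted past 2-fold, with 1.5-fold beside it. For a probe detected on 1 side, the fold is a lower bound, against the detection limit of the dim array (its lowest signal counted as well above background), or against the dim signal where that was higher. Noise between spots came from the 10 repeatedly printed probes nearest in signal, out of 320 in all. For this step alone, spike-in control probes were included, because they reach dim signals. The additive model was fitted with limma 3.58.1 in R 4.3.3 and tested on simulated data. Levels of different probes are not compared, but the sums of marker lists add them, so a sum follows its brightest probes.

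The named genes were all members, the related genes past 2-fold in a pair of arrays, the one with the widest range in each related list and, for members that spanned 2-fold or more, the 5 nearest profiles, plus genes chosen after their values were seen to illustrate a list. A gene that this rule names is not reported here. The members, the 7 lists of related genes and the 13 marker lists were chosen with earlier results of these data known. Of 27248 gene names, 23662 were current symbols in the RefSeq table of GRCm38.p6, and files' names were kept for the rest. Alternatives were normexp correction (offset 50), quantile normalization, median scaling, no filter, a stricter filter, the mean over probes, outlier spots kept, a 1.5-fold threshold and a trended prior. With 1 array per group, no interval between mice can be given.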

Additional observations from a re-analysis of the deposited data

Results flagged for a closer look

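Lgals3 had diet differences of opposite direction in the 2 genotypes: the log2 difference of sucrose from starch was -1.09 in wild-type mice and 0.85 in Glo1 heterozygous mice. Both exceeded 2 times the noise between spots, and both Lgals3 probes gave the same directions. With 1 array of pooled RNA per group, the difference between the genotypes was not tested.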

How the results depend on the processing

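No paired analysis was possible because each group had 1 array, and for the same reason no array could be left out. Of 54 member differences (9 genes, 6 comparisons), 40 kept their sign in all 6 alternatives run for them (normexp, quantile, median scaling, no filter, mean over probes, outlier spots kept) and 14 did not. Those 14 belonged to Ager, Cd36, Hmgb1, Prkcsh and Scarb1, and to Lgals3 for genotype on starch. Lgals3 ran from -1.10 to -0.79 for diet in wild-type mice, 0.66 to 0.85 in heterozygous mice and 1.45 to 2.01 for genotype on sucrose. S100a8 and S100a9 kept the sign of every difference, but only normexp, quantile and median scaling could change their values. These genes, like Cd36, Ddost and Prkcsh, had 1 probe, printed once. No filter, the mean over probes and outlier spots kept therefore left their values as they were. For the other members, no filter and outlier spots kept changed nothing either, since the brightest probe was printed once and passed the filter. The members past 2-fold for diet in wild-type mice became 0 of 9 with normexp correction (0.508% of all genes) and with the mean over probes (1.43%). They became 0 of 6 with only probes above the median signal (0.499%) and 2 of 10 with no filter (5.79%). With no filter, where the dim Msr1 enters, they became 1 of 10 for diet in heterozygous mice (5.36% of all genes). They became 2 for genotype on sucrose (5.62%) and 2 for the interaction (9.35%). The shares of all genes rose with no filter as well. With only probes above the median signal, where no Lgals3 probe is left, the last 2 became 0 (0.529% and 0.683% of all genes). At 1.5-fold they became 2, 2, 1, 3 and 2 for the first 5 comparisons, beside the shares of all genes given above. Related genes past 2-fold with no filter became 2 of 115 for diet in wild-type mice (5.79% of all genes) and 3 in heterozygous mice (5.36%). They became 2 for genotype on starch (5.31%) and 2 in heterozygous sucrose against wild-type starch (6.28%). For genotype on sucrose and for the interaction they became 1 with normexp correction and 1 above the median signal, and for the interaction 1 with the mean over probes. At 1.5-fold they became 6, 3, 3, 5, 7 and 7, beside the shares of all genes at 1.5-fold given above. The smallest adjusted p of a member in the limma fit ran from 0.140 to 0.814 for diet and from 0.186 to 0.789 for genotype over the alternatives. Cd36, Msr1, Scara5 and 1 Ager probe lie near background, which limits them.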
